A study of Mus musculus with 12 samples.

Results

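The unchallenged aorta of mice with a smooth muscle deletion of Socs3 (smSocs3-KO) was compared with that of wild-type (WT) littermates, across all genes that the arrays measured. The 6 arrays were those whose titles carry the words pre with either genotype, 3 of WT and 3 of smSocs3-KO, out of 12 arrays in the whole series. The other 6 arrays were of aortae taken after a 3-day challenge with beta-aminopropionitrile at 150 mg/kg/day and angiotensin II at 1000 ng/kg/min, and they serve here to share the estimate of the spread and to set the direction of a gene beside other animals. All mice were males of a mixed 129S5/SvEvBrd, C57BL6 and SJL background that carried loxP-flanked Socs3 alleles, the line having been crossed for 3 generations to C57BL/6J. The smSocs3-KO mice also carried Cre recombinase driven by the promoter of SM22, an actin-binding protein of smooth muscle, and the WT littermates lacked the Cre, so that the Cre transgene itself has no control of its own here. The labels give no age for these mice. The replicates are numbered as in the titles, 1, 2 and 3 for WT and 1, 3 and 4 for smSocs3-KO.

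Socs3 is an intracellular inhibitor that cytokines of the IL-6 family induce through gp130, the JAK kinases and Stat3, and that in turn binds the receptor and JAK and ends the signal. Genes that Stat3 drives include those of the acute phase response, secreted proteins such as serum amyloid A, lipocalin and complement factors that rise in inflammation. The aortic wall holds smooth muscle in the media, endothelium on the inside, and fibroblasts, macrophages and fat on the outside, and where the vessel faces a body cavity it is covered by mesothelium, a flat keratin-bearing epithelium.

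Each array held 62976 spots, and 55.4% to 61.2% of the non-control spots were well above background on the 12 arrays. No spot was saturated. The 32275 probes kept stood for 22755 genes, each by its brightest probe. Values are log2 signals relative to the 75th percentile of the same array, so that 0 is a bright spot and most genes lie below it, and a difference of 1 is a doubling. All 3 WT arrays and smSocs3-KO replicate 1 lay on slide 1, whereas smSocs3-KO replicates 3 and 4 lay on slide 2. Across genes the WT arrays correlated with each other at a Pearson r of 0.987 to 0.992 and the 2 slide 2 arrays at 0.989, while smSocs3-KO replicate 1 correlated with those 2 at 0.964 and 0.965 and with WT replicate 1 at 0.985. Because of this, the differences that the results turn on are set beside that of the single smSocs3-KO array on slide 1, the only comparison of genotypes within a slide. In whole aorta, more cells of a type and more RNA per cell cannot be told apart.

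The tissue carried the genes of smooth muscle. All 28 smooth muscle contractile genes listed were measured and were well above background on all 6 arrays, and their median log2 difference between genotypes was 0.01 (0.0032 on the slide 1 array), with 17 higher and 11 lower. Myh11, the smooth muscle myosin heavy chain, lay at 7.07, 7.06 and 6.89 in WT and at 7.59, 6.84 and 6.96 in smSocs3-KO. Des, which encodes desmin, was the contractile gene with the largest difference, 0.82 (SE 0.33, adjusted p = 0.9999 by limma with Benjamini-Hochberg adjustment).

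Socs3 itself, measured by 1 probe at chr11:117827480-117827539 (mm9), was not lower on the arrays labelled smSocs3-KO. Its values were 0.15, 0.17 and 0.58 in WT and 0.10, 0.97 and 1.29 in smSocs3-KO. The groups overlapped, smSocs3-KO replicate 1 being the lowest of the 6 arrays and replicates 3 and 4 the highest. The difference was 0.48 (SE 0.53, adjusted p = 0.9999 by limma), and within slide 1 it was -0.20. Which part of Socs3 the loxP sites flank is not given in the sources used here, and cells other than smooth muscle keep the gene, so that this probe does not check the labels.

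Before any challenge, 54 genes differed between the genotypes by the threshold that the study's methods set, p under 0.01 and a fold over 4 or under 0.25. Of these, 48 were higher in smSocs3-KO (0.211% of all genes tested) and 6 were lower (0.0264%). Only 6 genes passed an adjusted p of 0.05, all of them higher (0.0264%): Chi3l1, Nkx2-9, C3, Cpn1, Dmkn and 1190003J15Rik, now named Urah. No gene was lower at an adjusted p under 0.05. At an unadjusted p under 0.05 by limma, 576 were lower and 420 higher, 996 of the 22755 genes tested. The median log2 difference of all genes was 0.00, with the middle 50% between -0.19 and 0.14. For all 54 genes the 2 groups did not overlap, and over all genes tested 6.41% lay wholly higher and 4.62% wholly lower in smSocs3-KO. The split depended on the processing: with normexp background correction 9 genes were higher and 0 lower by the study's threshold, and with slide as a fixed block 28 were higher and 29 lower, with 0 past the adjusted one. With 1 array left out, the adjusted calls ran from 1, without WT replicate 1, to 10 higher genes.

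**Figure D1:**
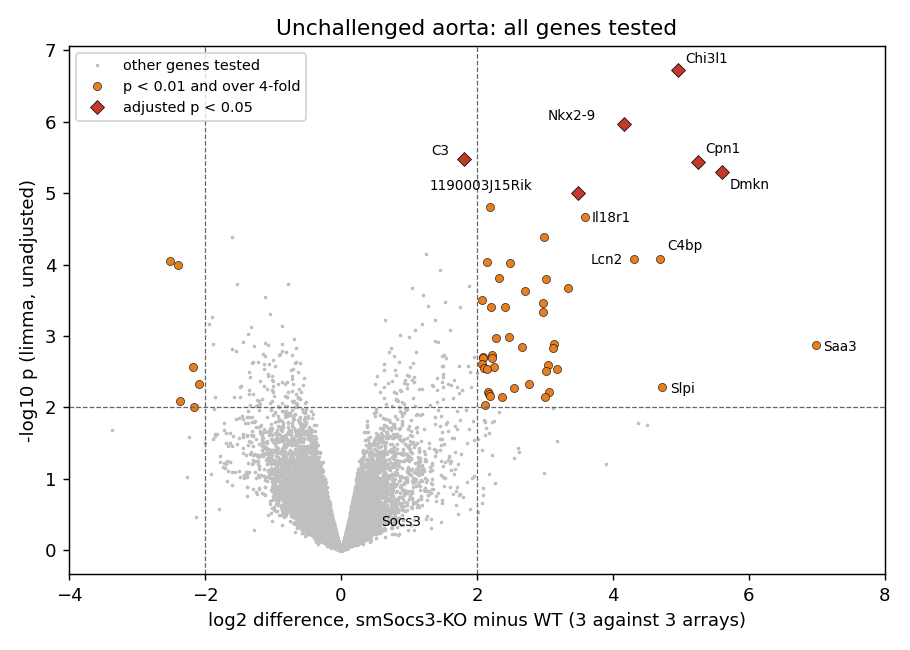
Log2 difference between smSocs3-KO and WT aorta before challenge (x axis, 3 against 3 arrays) and -log10 of the unadjusted limma p (y axis) for 22755 genes, with dashed lines at the limits of the study's threshold. The 48 genes past both lines on the right outnumber the 6 on the left, and the 6 genes that passed the adjusted threshold lie on the right. Socs3 lies near the bottom at 0.48.

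Of the genes that passed the adjusted threshold, Chi3l1 (now Chil1), a chitinase-like protein secreted in inflamed tissue, was measured at chr1:136086448-136086507 (mm9). Its values were -4.12, -3.40 and -4.51 in WT and 0.49, 1.03 and 1.31 in smSocs3-KO, so that every smSocs3-KO array was higher than every WT array by over 3 on the log2 scale. The difference was 4.96 (SE 0.42, adjusted p = 0.00427 by limma), and smSocs3-KO replicate 1 alone was 4.51 above the WT mean. Chi3l1 was well above background on only 2 of the 3 WT arrays, and over the alternative processings its difference ran from 3.07 to 5.26. Dmkn, which encodes dermokine, a secreted protein of epithelia, had 2 probes that gave 5.54 and 5.61. At the brighter one, chr7:31566013-31566072, it lay at -1.06, -2.28 and -2.42 in WT and at 3.80, 3.32 and 3.96 in smSocs3-KO. The 3 smSocs3-KO arrays were closer to each other than the WT arrays were. The difference was 5.61 (SE 0.67, adjusted p = 0.0233 by limma), and within slide 1 it was 5.72.

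C3, the central component of complement, was abundant in both genotypes. At chr17:57343416-57343475 it lay at 6.33, 6.58 and 6.26 in WT and at 8.07, 7.87 and 8.66 in smSocs3-KO. It rose by 1.81 on the log2 scale (SE 0.21, adjusted p = 0.0206 by limma), less than 4-fold, and by 1.68 within slide 1. The gene listed as 1190003J15Rik (Urah, an enzyme of urate breakdown) lay at -4.07, -3.68 and -3.77 in WT and at -0.61, -0.16 and -0.29 in smSocs3-KO, a difference of 3.49 (SE 0.45, adjusted p = 0.0379 by limma) that was 3.23 within slide 1. For these 4 genes smSocs3-KO replicate 1 lay with replicates 3 and 4 and apart from the WT arrays beside which it was hybridised. That array was 1 of those that chose these genes, so that its place is not independent of the choice.

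Some genes were measurable only in smSocs3-KO, and for these the difference is a lower bound. The bound sets the smSocs3-KO mean against, on each WT array, the lowest signal of any probe well above background, or the gene's own signal where that is higher. The p-value printed beside a bound, here and below, tests the difference of the measured signals, those under background included, and not the bound. Cpn1, a subunit of the plasma enzyme carboxypeptidase N, was well above background on no WT array and lay at -1.27, -1.09 and -1.31 in smSocs3-KO, at least 9.69-fold higher (adjusted p = 0.0206 by limma), the first of these values being that of slide 1. The 3 smSocs3-KO arrays differed by little. Nkx2-9, a homeobox transcription factor, was likewise above background on no WT array and lay at -2.39, -2.54 and -0.91 in smSocs3-KO, at least 5.86-fold higher (adjusted p = 0.0122 by limma). Saa3, an acute phase serum amyloid A protein made outside the liver, had the largest bound, at least 42.5-fold (adjusted p = 0.502 by limma), with its probe at chr7:53970389-53970448. Its smSocs3-KO arrays were far apart, at -2.32, 0.10 and 4.95. Saa3 was above all WT arrays on all 3 smSocs3-KO arrays, yet the adjusted p did not pass, and it was lowest on slide 1. Cpn1, Nkx2-9 and Saa3 passed the filter on dim probes only through smSocs3-KO arrays. Of the 48 genes, 13 were above background on no WT array and 23 on all 6 arrays.

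**Figure D2:**
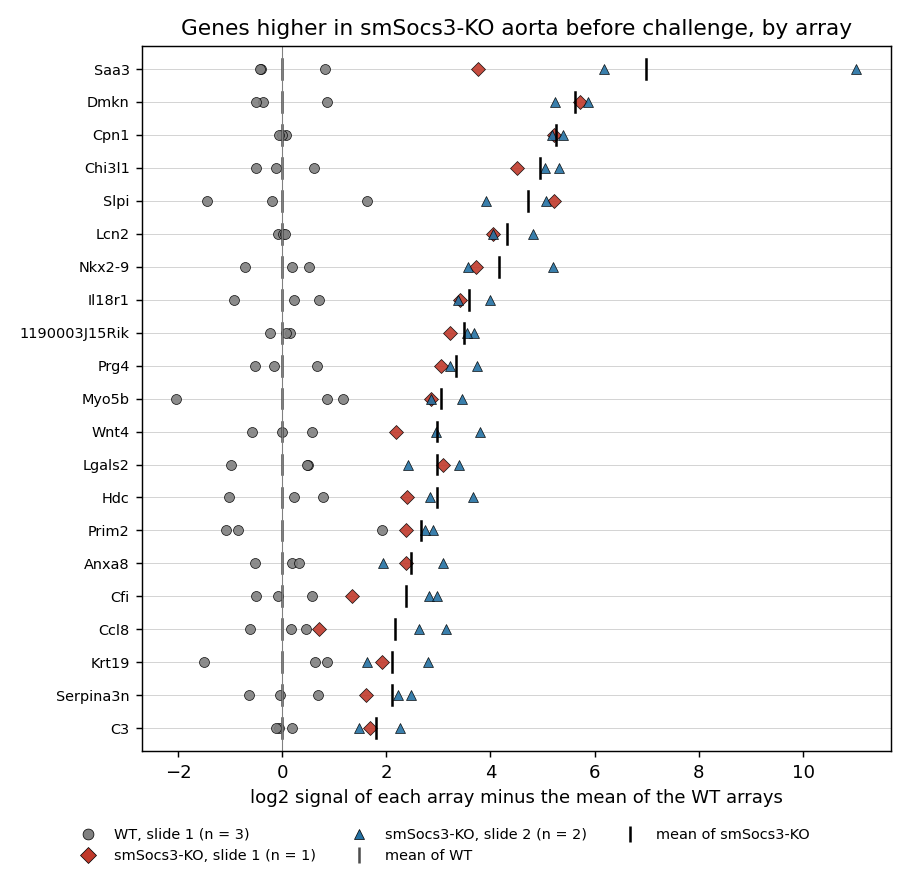
Log2 signal of each array minus the mean of the WT arrays (x axis) for genes higher in smSocs3-KO (y axis), with WT arrays as circles, the smSocs3-KO array of slide 1 as a diamond, the 2 of slide 2 as triangles, and bars at the group means. All smSocs3-KO points lie right of all WT points, and for Saa3, lowest at 3.76 on slide 1, they are far apart. Saa3, Cpn1 and Nkx2-9 were above background on no WT array.

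Among genes well above background on every array, the largest rises past the study's threshold besides Dmkn and 1190003J15Rik were in Slpi, Lcn2, Il18r1 and Prg4. Slpi, a secreted inhibitor of leukocyte proteases, lay at 1.81, -0.02 and -1.26 in WT and at 5.40, 4.09 and 5.24 in smSocs3-KO. The WT arrays were spread over 3 log2 units, and the difference of 4.73 (SE 1.35) had an adjusted p of 0.699 by limma and was 5.22 within slide 1. Lcn2, a siderophore-binding lipocalin and marker of acute inflammation, had its probe at chr2:32240199-32240258. It was even in WT, at -1.81, -1.70 and -1.66, and lay at 2.33, 2.34 and 3.09 in smSocs3-KO. The difference was 4.31 (SE 0.70, adjusted p = 0.135 by limma) and 4.05 within slide 1. Il18r1, a receptor chain for interleukin 18, was at -1.62, -1.13 and -2.77 in WT and at 1.57, 1.53 and 2.14 in smSocs3-KO, a difference of 3.59 (SE 0.50, adjusted p = 0.0605 by limma) that was 3.41 within slide 1. Neither Lcn2 nor Il18r1 passed the adjustment over all genes. Prg4, which encodes lubricin, differed by 3.34 (3.06 within slide 1) at its brighter probe and by -0.70 at its other probe, so that the 2 probes disagree.

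The next genes of this kind by size were Myo5b (3.05), a myosin that moves membrane vesicles in epithelia, Wnt4 (2.98), a secreted Wnt ligand, Lgals2 (2.97), a galectin, Hdc (2.97), which makes histamine, Anxa8 (2.47), an annexin, and Cfi (2.37), the complement protease that inactivates C3b. Their adjusted p values lay between 0.0946 for Wnt4 and 0.793 for Cfi, and on the slide 1 array their differences ran from 1.34 for Cfi to 3.09 for Lgals2. Prim2, a DNA primase subunit, differed by 2.67, but WT replicate 3 at -0.67 lay near the smSocs3-KO arrays at -0.21, 0.32 and 0.16, and its other probe gave -0.34. In Myo5b, Wnt4, Lgals2, Hdc, Anxa8 and Cfi, WT replicate 3 was the lowest array. Others of the 48, named here after their values were seen, were Lrp2, the endocytic receptor megalin, Nr1h4, the bile acid receptor, Cyp7b1, an oxysterol hydroxylase, Ptger3, a prostaglandin E receptor, Slc39a8, a metal ion transporter, Gfra1, a co-receptor for glial growth factors, and Serpinb5, a serpin of epithelia. Ptger3, Serpina3i and Hist1h4i had a second probe under 4-fold, at 0.58, 1.27 and 0.35. WT replicate 3 was the lowest of the WT arrays for 26 of the 48 higher genes (54.2%), against 35.4% of all genes tested.

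The 6 lower genes were dim. For 5 of them no smSocs3-KO array was well above background, and none was above background on all 6 arrays, so that no fall met the rule for brightly measured genes. Accn2 (now Asic1), an acid-sensing ion channel, lay at -3.89, -3.45 and -4.04 in WT and was at least 1.82-fold lower in smSocs3-KO (adjusted p = 0.135 by limma). Among genes above background on all WT and no smSocs3-KO arrays, Fgfbp1, a carrier of fibroblast growth factors, had the largest bound, at least 2.55-fold lower (adjusted p = 0.820 by limma). Fcgbp followed at 2.49-fold (adjusted p = 0.982 by limma) and Opn1sw, the short-wave cone opsin, at 2.29-fold (adjusted p = 0.193 by limma).

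On slide 1 alone, smSocs3-KO replicate 1 kept the direction of all 54 genes and lay outside the 3 WT arrays for each, but it was 1 of the arrays that chose these genes, whose groups do not overlap, so that this was fixed by the choice. That array lay above all WT arrays for 36% of all genes and below them for 32.6%. Its difference from WT was over 4-fold for 32 of the 48 higher genes and for 2 of the 6 lower ones. The median over the 48 genes was 2.26 on slide 1 and 2.91 on slide 2, and 40 of the 48 were larger on slide 2. Col6a5, a collagen VI chain, was the least alike, with 0.28 on slide 1. It was well above background on no WT array and not on the slide 1 array of smSocs3-KO, so that 0.28 compares signals under background. In the fit that treats this array as a group of its own and assumes it to vary like the others, 28 genes passed the study's threshold as higher (0.123%) and 29 as lower (0.127%), and 16 of the 28 were among the 48. No gene passed an adjusted p of 0.05 within slide 1, with 2191 at an unadjusted p under 0.05 by limma. Chi3l1 had an adjusted p of 0.114 there, Dmkn, Cpn1, Nkx2-9 and C3 had 0.226, and 1190003J15Rik had 0.305.

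No gene of the IL-6 family and its signalling passed a threshold. Of 16 measured ligands and receptors of 19 listed 5 were higher and 11 lower, with a median difference of -0.07 (0.01 on slide 1). Il6 itself had the largest difference. It was well above background on no WT array and lay at -2.77, -1.52 and -2.03 in smSocs3-KO, all 3 arrays being above background, at least 5.24-fold higher (adjusted p = 0.9999 by limma). Osmr, the oncostatin M receptor chain, lay at 2.31, 2.31 and 2.58 in WT and at 3.06, 3.05 and 3.06 in smSocs3-KO, a difference of 0.66 (SE 0.26, adjusted p = 0.9999 by limma). These were the only 2 members whose groups did not overlap with smSocs3-KO higher (6.41% of all genes). Il6st, which encodes gp130, differed by 0.02.

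Downstream of the receptor, none of the 11 JAK kinases and STAT factors passed either threshold, with a median of 0.13 (-0.01 on slide 1). Stat3 lay at 3.81, 3.76 and 3.65 in WT and at 4.27, 3.69 and 4.03 in smSocs3-KO, and the groups overlapped. The largest differences were those of Jak3 (0.52), Tyk2 (0.49) and Stat4 (0.41), and the groups did not overlap for Jak3 and Stat4. Among the 16 SOCS, PIAS and phosphatase inhibitors, the median was 0.05 (-0.08 on slide 1) and no member passed. The groups overlapped for all 16. Socs1 differed by -0.02, Socs2 by 0.02 and Socs6 by -0.23.

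Stat3 target and acute phase genes were higher together. Of 33 measured of 36 listed, 30 were higher and 3 lower, 5 passed the study's threshold as higher (0.211% of all genes) and none as lower, and 13 had groups that did not overlap, all with smSocs3-KO higher (6.41% of all genes). The median difference was 0.48, against 0.00 for all genes, and it was 0.36 on the slide 1 array. The list was drawn up with results of these arrays known, so that its count is not independent evidence of a direction. The 5 genes were Saa3, Chi3l1, Slpi, Lcn2 and Serpina3n, and C3 passed the adjusted threshold beside Chi3l1. Serpina3n, a protease inhibitor of the acute phase, lay at -0.05, 0.55 and 1.27 in WT and at 2.20, 3.06 and 2.82 in smSocs3-KO (difference 2.10, SE 0.55, adjusted p = 0.579 by limma, 1.61 within slide 1). The Serpina3 genes are close relatives, as are the Saa genes, and a probe may read more than 1 of them. Not all members moved. Saa1 was raised on smSocs3-KO replicate 4 alone, at 2.65, against -0.17 and -0.31 on the other two, and S100a9 differed by -0.15 with a range from -3.88 to -0.07 in smSocs3-KO.

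Complement genes made up the second such group. Of 19 measured, 17 were higher in smSocs3-KO and 2 lower, with a median of 0.40 (0.24 on slide 1) and 9 members whose groups did not overlap with smSocs3-KO higher (6.41% of all genes). C3 alone passed the adjusted threshold and none passed the 4-fold one. C4b, a component of the classical pathway, lay at 4.08, 4.39 and 3.69 in WT and at 5.44, 5.30 and 6.02 in smSocs3-KO, a difference of 1.53 (SE 0.30, adjusted p = 0.256 by limma) that was 1.38 within slide 1. Cfb, factor B of the alternative pathway, differed by 1.21 (SE 0.23, adjusted p = 0.226 by limma) and by 0.92 within slide 1. Both were higher on all 3 smSocs3-KO arrays than on any WT array. The macrophage genes of the list, C1qa, C1qb and C1qc, differed by 0.72, 0.62 and 0.27, and on slide 1 by -0.12, 0.07 and 0.11. C4bp, the C4b-binding protein, was not on the list and was named after its values were seen, but it passed the study's threshold. It was above background on no WT array and lay at -1.55, -3.41 and -0.95 in smSocs3-KO, at least 5.77-fold higher (adjusted p = 0.135 by limma). C4bp passed the filter on dim probes only through smSocs3-KO arrays, so that it adds no support to the list.

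The promoters of genes that were higher together were read for the motif of STAT factors, TTCNNNGAA, and for one of C/EBP factors, TTGCNNAA. Both strands were read in the window of 250 bases before each RefSeq start site (GRCm38.p6). The STAT motif was present in 5 of 37 promoters of the higher genes (13.5%; 31 of the 48 genes had an entry) and in 7.02% of all 32851 promoters. The C/EBP motif was present in 8 of the 37 (21.6%) and in 9.56% of all. These shares are a description, and several promoters belong to the same gene. Shown are 3 of the acute phase genes named above and Socs3, as the 250 bases before the start, 5′ to 3′, with matches to either motif in capitals. Lcn2, C3 and Saa3 each held 1 match to the C/EBP letters and none to the STAT letters within this window, while Chi3l1 and Serpina3n, not shown, held neither, and Socs3 held 1 STAT match 154 bases before its start.
Lcn2 (chr2:32387740-32387989, minus strand): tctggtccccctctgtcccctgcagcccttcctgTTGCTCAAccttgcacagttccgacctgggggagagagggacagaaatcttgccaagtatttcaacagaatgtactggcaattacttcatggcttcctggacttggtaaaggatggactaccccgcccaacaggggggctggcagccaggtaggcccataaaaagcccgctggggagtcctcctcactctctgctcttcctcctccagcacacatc
C3 (chr17:57228137-57228386, minus strand): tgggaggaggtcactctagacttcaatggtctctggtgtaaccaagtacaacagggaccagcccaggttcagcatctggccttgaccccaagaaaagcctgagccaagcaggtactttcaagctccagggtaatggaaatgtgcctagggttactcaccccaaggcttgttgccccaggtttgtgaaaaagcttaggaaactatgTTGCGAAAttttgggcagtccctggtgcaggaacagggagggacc
Saa3 (chr7:46715677-46715926, minus strand): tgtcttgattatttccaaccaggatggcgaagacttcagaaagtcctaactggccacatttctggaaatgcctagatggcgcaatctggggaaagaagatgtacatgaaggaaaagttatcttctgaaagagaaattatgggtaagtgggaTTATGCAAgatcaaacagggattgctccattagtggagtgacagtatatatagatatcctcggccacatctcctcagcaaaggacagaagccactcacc
Socs3 (chr11:117969367-117969616, minus strand): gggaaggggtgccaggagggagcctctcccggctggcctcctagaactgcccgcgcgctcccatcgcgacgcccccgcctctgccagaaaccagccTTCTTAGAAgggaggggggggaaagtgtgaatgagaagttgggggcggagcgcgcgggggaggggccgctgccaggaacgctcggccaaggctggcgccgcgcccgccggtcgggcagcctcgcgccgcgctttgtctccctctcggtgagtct

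Markers of mesothelium moved with these genes. All 15 listed markers were measured and all 15 were higher in smSocs3-KO, with a median of 1.74 (1.63 on slide 1), and the groups did not overlap for 10 (6.41% of all genes lay wholly higher). Krt19, a keratin of simple epithelia, was the only one past the study's threshold, at 0.71, 0.48 and -1.66 in WT and 1.76, 1.47 and 2.65 in smSocs3-KO (difference 2.12, SE 0.67, adjusted p = 0.869 by limma). Wt1, a transcription factor of mesothelium, lay at 0.16, 0.28 and -2.21 in WT and at 1.04, 1.21 and 2.75 in smSocs3-KO. Msln, mesothelin, lay at 3.92, 3.56 and 1.38 in WT and at 5.18, 4.14 and 5.20 in smSocs3-KO. In both, WT replicate 3 was far below the other WT arrays, and it was the lowest WT array for 14 of the 15 markers. Upk3b, a membrane protein of mesothelium, overlapped between the groups, with 2 of the 3 WT arrays at or above the lowest smSocs3-KO array, 1.002. Without WT replicate 3 the median of the markers was 1.22. The log2 of their summed signal ranged from 4.30 to 5.57 in WT and from 5.97 to 6.96 in smSocs3-KO. Msln, Wt1 and Krt19 were well above background on all 6 arrays, Upk1b on 2 of the 3 WT arrays, and Pkhd1l1 on no WT array. The part of the mesothelium in the higher genes was not tested. The higher genes differed in their order over the WT arrays. WT replicate 3 was the lowest WT array for Myo5b, Slpi and Il18r1, Lcn2 was even, and Serpina3n was highest in replicate 3. These genes were picked after their values were seen, and what set their order was not tested. WT replicate 3 was the lowest WT array for 26 of the 48 higher genes (54.2%), against 35.4% of all genes.

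**Figure D3:**
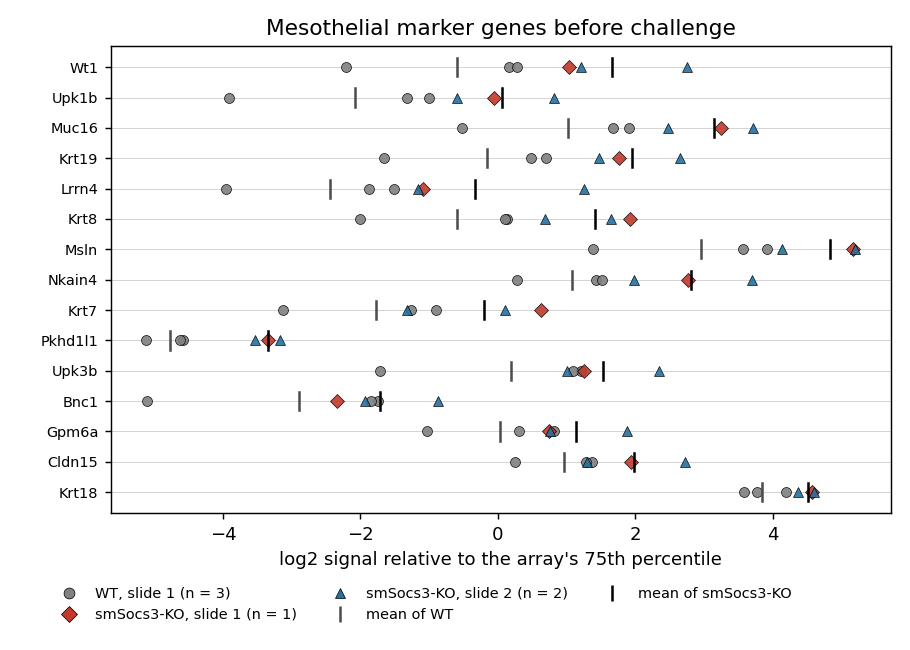
Log2 signal relative to the array's 75th percentile (x axis) of 15 mesothelial markers (y axis) before challenge, with WT arrays as circles, the smSocs3-KO array of slide 1 as a diamond, the 2 of slide 2 as triangles, and bars at the group means. The leftmost circle of most rows is WT replicate 3, and the groups do not overlap for 10 of the 15 markers.

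Markers of other cell types differed less or in part. Fibroblast markers, 12 of 12 measured, had a median of 0.05 (0.06 on slide 1) and no member past either threshold, and endothelial markers, 12 of 12, had a median of -0.07 (-0.49 on slide 1). Macrophage markers, 15 of 15, had a median of 0.27 (0.08 on slide 1). None of 7 measured neutrophil markers passed, with a median of -0.15 (-0.33 on slide 1). Of the 6 lymphatic endothelial markers, 4 were measured, with a median of 1.07 (1.53 on slide 1). All 4 were higher, 3 of them without overlap (6.41% of all genes lay wholly higher). One of these was Flt4, a receptor for lymphatic growth factors, which passed the filter on dim probes only through smSocs3-KO, since it was above background on no WT array and at least 1.47-fold higher in smSocs3-KO (adjusted p = 0.611 by limma). Of 14 epithelial and keratinocyte markers 8 were measured, with a median of 0.07 (0.08 on slide 1). Lung epithelial markers were dim, 4 of 10 being measured, 3 of them higher and 1 lower, with a median of 1.33 (0.94 on slide 1). Scgb1a1, an airway secretory protein, was above background on 1 WT and 3 smSocs3-KO arrays, and Sftpd, a surfactant protein, was lower on all 3 smSocs3-KO arrays (-0.96). The lists of T cells, B cells, mast cells, red blood cells, brown and white fat, striated muscle, adrenal, Schwann cells, neurons, chondrocytes, and liver and pancreas had no member past either threshold, with medians between -0.22 and 0.19. On the slide 1 array alone the medians of these lists ran from -0.74 for red blood cells and -0.53 for mast cells to 0.53 for brown fat and 0.66 for striated muscle.

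Genes of the matrix and of the signals that act on it were near 0 as groups. The 18 collagen genes had a median of -0.08 (0.15 on slide 1), the 21 measured matrix protease and inhibitor genes 0.06 (0.0047), the 20 TGF-beta pathway genes -0.11 (-0.17) and the 20 mTOR and Akt pathway genes -0.01 (-0.05). None of these genes passed either threshold. Eln, which encodes elastin, lay at 4.77, 5.08 and 5.33 in WT and at 3.98, 5.26 and 4.85 in smSocs3-KO. The groups overlapped. Of the 34 elastic fibre and matrix glycoprotein genes, only Prg4 passed. Timp1, an inhibitor of matrix metalloproteases, lay at 2.88, 3.00 and 3.07 in WT and at 4.32, 4.10 and 4.08 in smSocs3-KO, a difference of 1.18 (SE 0.66, adjusted p = 0.9999 by limma) with groups that did not overlap and 1.33 within slide 1.

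Among cytokine and chemokine genes, 1 of 31 measured passed the study's threshold, and the median was 0.29 (-0.17 on slide 1). Ccl8, a monocyte chemoattractant, lay at -0.91, -0.63 and -1.70 in WT and at -0.36, 2.06 and 1.56 in smSocs3-KO (difference 2.16, SE 0.64, adjusted p = 0.738 by limma). The slide 1 array was just above the WT arrays, by 0.71 over their mean. Cxcl13, a chemoattractant of B cells, was above background on no WT array and on 2 of 3 smSocs3-KO arrays, at -4.66, -2.92 and 2.15. Of 25 interferon-stimulated genes, all measured, 23 were higher and none passed, and the median was 0.55 over all 3 smSocs3-KO arrays, 0.12 on slide 1 and 0.87 on slide 2. The medians of the single arrays, relative to the WT mean, were -0.06, 0.50 and -0.61 in WT and 0.12, 0.51 and 0.92 in smSocs3-KO, so that WT replicate 2 lay level with smSocs3-KO replicate 3. MHC class II and dendritic cell genes had a median of 0.74, with 0.30 on slide 1 and 0.93 on slide 2. H2-Aa, an MHC class II chain, lay at 0.59, 0.59 and 0.23 in WT and at 0.76, 1.66 and 2.72 in smSocs3-KO. WT replicate 3 was the lowest WT array for 20 of the 25 interferon-stimulated and all 11 measured MHC class II and dendritic cell genes. The part of the slide and of that array in these differences was not tested, since the slide 2 arrays have no WT array beside them.

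Immediate early genes, which respond within minutes to handling and stress, were lower as a group. Of 18 measured, 15 were lower and 3 higher, 6 had groups that did not overlap, all with smSocs3-KO lower (4.62% of all genes), and none passed either threshold. The median was -0.40, and -0.50 on the slide 1 array. Fos lay at 0.68, 1.13 and 1.09 in WT and at -0.64, 0.30 and -0.50 in smSocs3-KO. Dusp1, a phosphatase that ends MAP kinase signals, differed by -0.65 (SE 0.205, adjusted p = 0.873 by limma), and every smSocs3-KO array was below every WT array in both genes. Heat shock genes went with 1 array. Their median was 0.61 on smSocs3-KO replicate 1, which was above all WT arrays for 11 of the 13 measured, and -0.18 on slide 2. Dnajb1, a heat shock co-chaperone, was 5.91 on that array against 4.25 and 4.39 on the other two.

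The remaining lists, cell cycle (41 measured, median 0.11), ER chaperone (18, 0.26), circadian clock (18, -0.16), lysosomal (20, 0.08) and renin-angiotensin genes (9, -0.16), had no member past either threshold. Their slide 1 medians were -0.10, 0.04, 0.16, -0.09 and -0.34 in the same order.

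**Figure D4:**
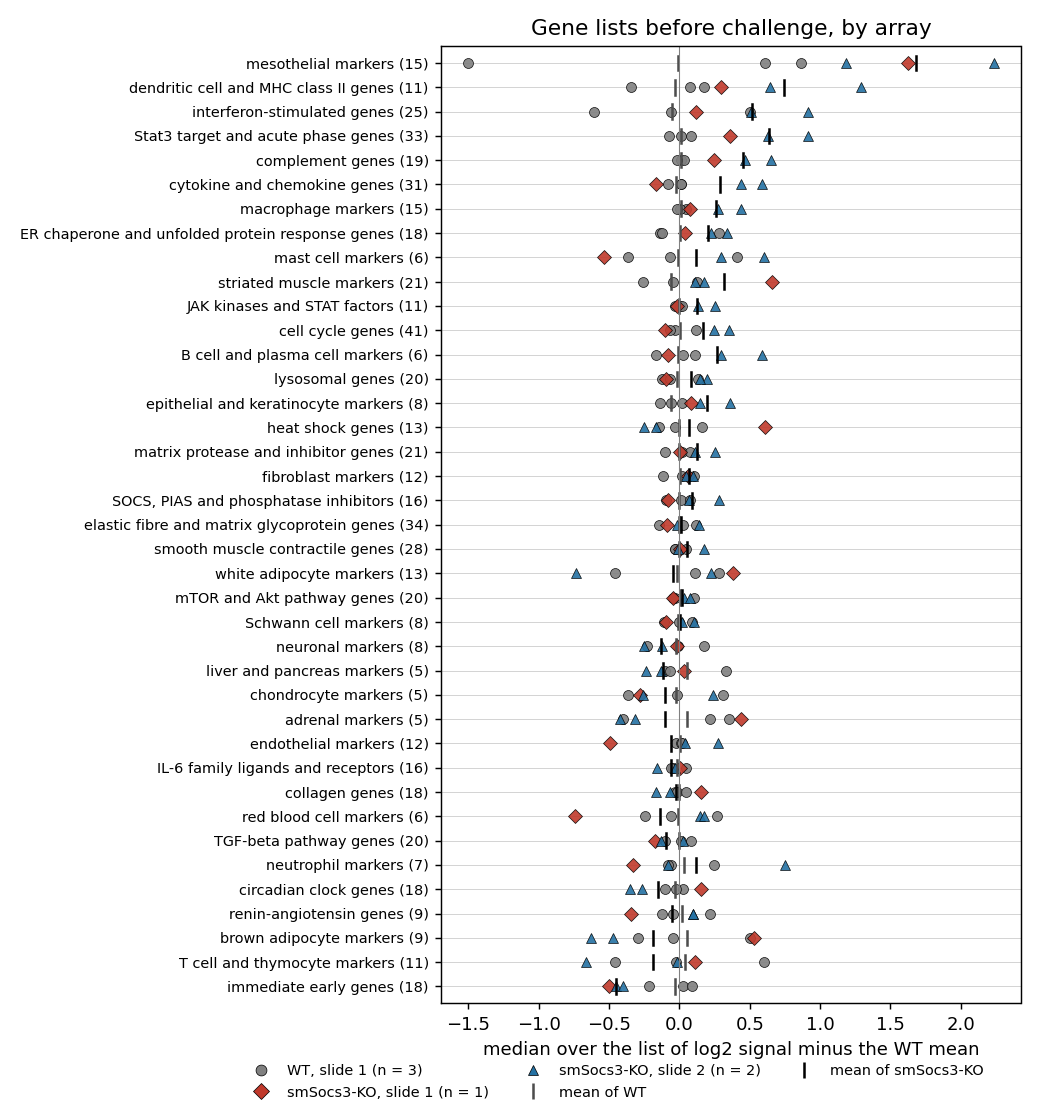
Median over each gene list of the log2 signal minus the WT mean (x axis) on each of the 6 arrays (symbols by genotype and slide, bars at the group means), for lists with at least 5 measured genes (y axis, with the number measured), ordered by the median of the genotype difference. Mesothelial markers lie at the top and immediate early genes at the bottom, and in the interferon-stimulated list the diamond of slide 1 lies among the WT circles.

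At day 3 the same genes could be looked at in other animals, since that comparison shares no array with this one. All WT arrays at day 3 lay on slide 1 and all smSocs3-KO arrays on slide 2, so that slide and genotype cannot be told apart there. Of the 48 genes higher before challenge, 47 were higher in smSocs3-KO at day 3, against 38.3% of all genes. For 41 of the 48 the groups did not overlap (7.32% of all genes), and 36 passed the study's threshold as higher (0.954% of all genes). Their median difference was 2.69 before challenge and 2.91 at day 3, against -0.10 at day 3 for all genes. Spon2, a secreted matrix protein, was the exception, with 2.15 before challenge and -0.62 at day 3. Chl1, a cell adhesion molecule, was 2.28 before challenge and 4.32 at day 3, and Col6a5 was 3.07 and 5.01. Both values of Col6a5 are set against WT signals under background, so that their size is not well measured. Chi3l1 was alike, at 4.96 and 4.78. Of the 6 lower genes, 5 were lower at day 3 and none passed, with differences between -1.15 and 0.27. For none of the 54 genes did the change in the genotype difference from before challenge to day 3 pass, the smallest adjusted p being 0.757 by limma. Over all genes no adjusted p passed in that test either, with 1253 of 22755 at an unadjusted p under 0.05 by limma. Il6 differed by 1.07 at day 3 (adjusted p = 0.772 by limma), and Socs3 by 1.504 (adjusted p = 0.201 by limma).

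**Figure D5:**
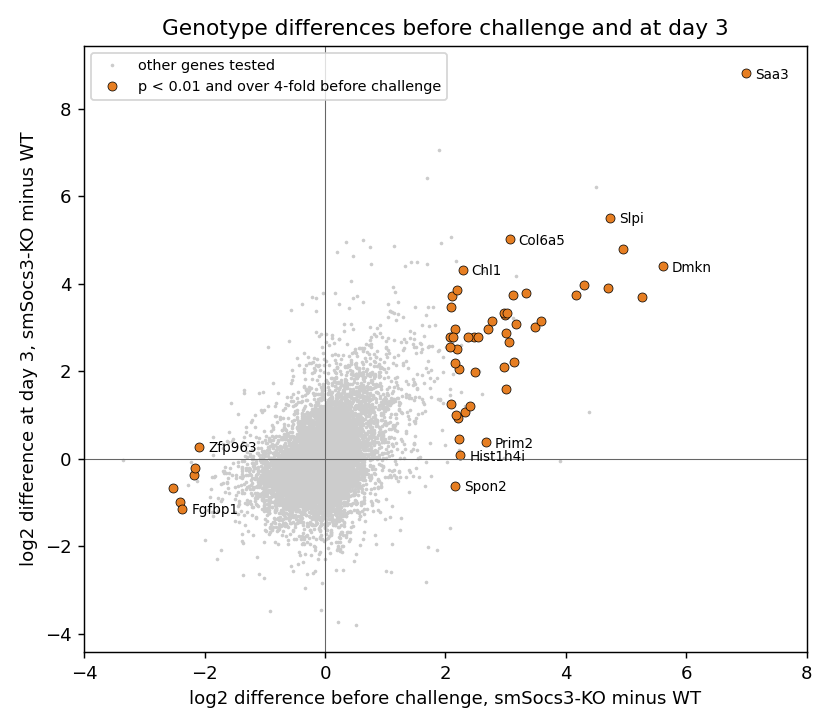
Log2 difference between smSocs3-KO and WT before challenge (x axis) and at day 3 of challenge (y axis) for all genes tested, each from 3 against 3 arrays with no array in common. Of the 48 genes past the study's threshold on the right, 47 lie above 0 at day 3, and Spon2 lies below.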

How the data were processed

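RNA of whole mouse aorta was hybridised to 12 one-colour SurePrint G3 Mouse arrays, 3 per group of genotype and time, and groups were taken from the sample titles. Per the file headers, the authors extracted spot intensity with Feature Extraction 10.7.1.1, while the submitters' processing notes name 9.5.1.1. The deposited intensity values were background-subtracted and detrended by that software and not normalized between arrays. The authors' deposited series table of intensity had been quantile normalized and served as an alternative. Flags for spots well above background (13 background SDs) came with the deposited files.

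From these, log2 processed signal minus the 75th percentile of each array was computed, control and outlier spots were left out, spots of a probe averaged, probes kept if every array of some group had them well above background, and the brightest probe stood for its gene. Probe positions are of mm9, and whether a probe lies in a UTR was not determined. limma 3.58.1 in R 4.3.3 fitted 4 group means on all 12 arrays, and 5 means with smSocs3-KO before challenge divided by slide. P-values were adjusted by Benjamini-Hochberg over 22755 genes. Genes were named by size among those past the threshold, above background on all 6 arrays and without overlap (the 12 largest each way), by the adjusted threshold, by the 3 largest bounds each way, and by gene list, whereas Accn2, C4bp, Col6a5, Spon2, Chl1 and list members of smaller size were named after their values were seen. The method was tested on simulated data. Members and lists were chosen with earlier results of these data known. Nothing says how many animals an array holds, so that p-values measure the spread between arrays, whose number limits the precision, and an exact test of 3 against 3 cannot go below 0.1. Alternatives were other background corrections, normalizations, filters, variance models, blocks and left-out arrays. Array gene names were matched to current symbols through RefSeq for 15583 genes.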

Additional observations from a re-analysis of the deposited data

Results flagged for a closer look

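Opn1sw was noted because its groups did not overlap in opposite directions, lower in smSocs3-KO before challenge (-1.53, SE 0.27) and higher at day 3 (0.45). The difference between the 2 contrasts was 1.98 on the log2 scale (adjusted p = 0.401 by limma), which did not pass the adjustment over all genes. It was lower on 3 of 3 smSocs3-KO arrays before challenge, where it was well above background on none. Over the alternatives its adjusted p before challenge by limma ran from 0.00128 to 1. The part of the slide, which at day 3 cannot be told apart from genotype, was not tested.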

How the results depend on the processing

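All 48 higher genes that an alternative still measured kept their direction under every alternative. Since the groups did not overlap for any of the 48, leaving out an array, slide 1 only and slide as a fixed block could not have reversed them. Their number was 9 with normexp background correction, 11 with normexp and quantile normalization, 23 with probes above background on all 6 arrays, 163 with array weights, and 28 with slide as a fixed block, which equals slide 1 only because smSocs3-KO before challenge alone spans both slides. The number lower, 6, became 0, 0, 0, 98 and 29 in the same order, 12 without a filter and 3 with slide as a random block (within-slide correlation 0.382). Median centring, which moved the median of all genes to 0.12, gave 61 higher. Array weights and slide 1 only put the higher share of calls at 62.5% and 49.1%, against 88.9%, no filter at 79.7%, normexp alone or with quantile normalization and the stricter filter at 100%. The adjusted calls, 6 higher and 0 lower, became 2723 and 4900 with array weights, 2 higher with the stricter filter, 0 with slide as a fixed block or slide 1 only, 1 with slide as a random block, and 1 lower with the 6 arrays before challenge only. Within slide 1, 28 higher and 29 lower became 7 and 0 with normexp and 9 and 0 with normexp and quantile normalization, and the lower count was 66 with quantile normalization or the deposited table and 47 with median centring. The 0 adjusted calls became 3 with quantile normalization and 3 with the deposited table. The cause was not tested, save for the stricter filter, which tested fewer genes. By its rule it could keep only 23 of the 48 higher genes and 0 of the 6 lower ones at their brightest probe. It also left out Chi3l1, Cpn1 and Nkx2-9 of the adjusted calls.

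Leaving out 1 array gave 30 to 57 higher and 3 to 30 lower genes by the study's threshold, lowest for the higher ones without smSocs3-KO replicate 4 (30) and highest for the lower ones without smSocs3-KO replicate 1 (30), and 3 lower without smSocs3-KO replicate 4, WT replicate 1 or WT replicate 2. Adjusted calls ran from 1 to 10 higher and 0 to 5 lower, with 1 higher without WT replicate 1, 2 without WT replicate 2, smSocs3-KO replicate 4 or day 3 smSocs3-KO replicate 2, 3 without smSocs3-KO replicate 3 and 10 without day 3 WT replicate 3. Within slide 1, leaving out 1 WT array gave 26 to 35 higher, 26 to 37 lower and 0 adjusted calls. A lone slide 1 array is assumed to vary like the other groups. With the replicate number as a block, 45 genes were higher by the study's threshold and 1 passed the adjustment. Over 11 pairs of arrays with the same number, deviations from the group mean correlated from -0.40 to 0.46, so that the numbers are not shown to pair the arrays.

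The genes followed over the alternatives were those named by a rule of size, bound or threshold and list members past a threshold. Among these only Socs3 reversed, to -0.20 with slide as a fixed block and with slide 1 only. Other list members named in the text were not followed, and Il6st (0.02 to -0.26), Socs2 (0.02 to -0.02) and C1qa were among those that changed sign within slide 1. Of 668 values of the followed genes under alternatives, 553 stayed on the same side of the thresholds, 110 lost and 3 gained a call. Krt19, C3, Cfi and Fgfbp1 lost theirs most often. Of 1134 list medians, 1046 moved by less than the spread between smSocs3-KO arrays. Signal over background limits the lower genes most, 5 of 6 being below it in smSocs3-KO.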
